A study of Mus musculus with 39 samples.

Results

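The genes described here copy DNA during S phase or repair it by homologous recombination. They were taken from a list of 38 genes, and each was represented by its probe set with the highest mean over 39 arrays, leaving out sets marked as cross-hybridising (_x_at) where another existed. For Ccne1, Fen1, Mcm5, Pold1 and Rrm2 a brighter set was left out in this way. Of these, 37 were measured, out of 18194 genes measured in all, and Chaf1a was not analysed here because the annotation used gave it no probe set. No gene was dropped for a low value. The measured genes comprise 4 of origin recognition and licensing, 6 of the MCM helicase, 4 of origin firing, 6 of DNA polymerases and primase, 6 of the clamp, its loader and the lagging strand, 4 of nucleotide supply, 3 of G1/S control, 2 of chromatin assembly and maintenance, and 2 of homologous repair.

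Replication starts where the origin recognition complex, Cdc6 and Cdt1 load the MCM helicase in G1. Cyclin E kinases, Cdc45 and the GINS complex then fire the helicase, polymerases copy both strands on the sliding clamp, and ribonucleotide reductase supplies the deoxynucleotides. Most of these genes are known as targets of E2F transcription factors and are high in dividing cells, while the resting mammary gland holds few such cells. Homologous recombination, which needs Brca1 and Brca2, repairs broken forks with the sister chromatid as template.

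Total RNA of mouse tissue was measured on Affymetrix arrays, and the values are log2 intensities made with RMA, in which a difference of 1 is a doubling of signal. Samples fell into 6 groups by genotype and tissue. There were 19 arrays of breast from 15 quadruple animals, which carry SB, Tg, K5Cre and Bcat. There were 8 arrays of breast from 8 triple K5Cre animals, which carry SB, Tg and K5Cre. The triple Bcat group, with SB, Tg and Bcat, had 3 arrays of breast from 2 animals. Animals labelled with Bcat alone, written +/-, gave 2 arrays of masses from 2 animals and 3 arrays of ventral tumours from 1 animal. Normal mammary gland was hybridised from 4 animals on 4 arrays, and 2 were triple K5Cre, 1 was quadruple and 1 was triple Bcat, so these glands carried the same constructs as the breast samples. SB is Sleeping Beauty by the title of the study, a DNA transposon system that can mutate genes by insertion, and K5Cre is the Cre recombinase driven by the keratin 5 promoter, which is active in basal epithelial cells. The labels give no age, do not define Tg or Bcat, and call the quadruple and triple samples breast, without saying whether a sample was a tumour. The titles of all 3 Bcat-alone animals begin with C57 and those of no other animal do, so strain and genotype cannot be told apart there. No gland came from a Bcat-alone animal. In the comparisons of those lesions with gland, tissue and genotype therefore differ together.

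The groups differed in their cell make-up as far as marker genes show it. The mean log2 level of 8 measured adipocyte markers was 4.94 to 12.31 in quadruple breast, 4.71 to 8.69 in triple K5Cre breast, 5.65 to 8.06 in triple Bcat breast, 5.38 to 5.94 in Bcat masses, 5.58 to 5.95 in Bcat ventral tumours and 12.19 to 12.63 in normal gland. Skeletal muscle markers averaged 4.17 to 11.36 in quadruple breast and 4.10 to 11.84 in triple K5Cre breast, against 10.89 to 12.50 in normal gland. Epithelial markers were present in all groups, at 10.20 to 12.31 in quadruple breast, 10.69 to 12.47 in triple K5Cre breast, 11.05 to 11.95 in triple Bcat breast, 11.89 to 12.03 in Bcat masses and 11.10 to 11.77 in Bcat ventral tumours, against 10.58 to 11.40 in normal gland. Xist, the non-coding RNA of the inactive X chromosome, was under 8 on 3 arrays, which are quadruple 5, triple K5Cre 2 and normal gland 3, the last 2 from 1 animal. Quadruple arrays 2 and 9 stood apart with adipocyte means of 12.31 and 10.87. Array medians lay between 5.10 and 5.27, so the arrays were on 1 scale.

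Promoters are shown for 5 members: Mcm6, Mcm5 and Rfc3 because each held more than 1 E2F-type match, and Rrm2 and Ccne1 because the comparisons below turn on them and they held none. The windows come from RefSeq on build GRCm38.p6 and run from 250 bases before the annotated start to 50 bases after it, 5′ to 3′ on the strand of the gene. They lie at chr1:128359656-128359955 on the minus strand (Mcm6), chr8:75109259-75109558 on the plus strand (Mcm5), chr5:151651159-151651458 on the minus strand (Rfc3), chr12:24708004-24708303 on the plus strand (Rrm2) and chr7:38107441-38107740 on the minus strand (Ccne1). Capitals mark the letters TTTNNCGC read on either strand.
Mcm6: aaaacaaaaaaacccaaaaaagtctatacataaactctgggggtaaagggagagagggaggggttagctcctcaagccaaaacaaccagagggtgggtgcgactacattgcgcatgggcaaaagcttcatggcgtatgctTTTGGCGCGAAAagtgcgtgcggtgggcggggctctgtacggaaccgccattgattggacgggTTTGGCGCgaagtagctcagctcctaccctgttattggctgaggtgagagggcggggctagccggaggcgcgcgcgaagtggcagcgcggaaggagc
Mcm5: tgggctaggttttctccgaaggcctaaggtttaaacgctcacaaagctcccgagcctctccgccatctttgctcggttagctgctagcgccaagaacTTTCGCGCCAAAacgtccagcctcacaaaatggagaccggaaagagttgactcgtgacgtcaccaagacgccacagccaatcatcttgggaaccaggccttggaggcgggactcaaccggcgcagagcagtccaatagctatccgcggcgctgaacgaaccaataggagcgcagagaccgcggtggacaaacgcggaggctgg
Rfc3: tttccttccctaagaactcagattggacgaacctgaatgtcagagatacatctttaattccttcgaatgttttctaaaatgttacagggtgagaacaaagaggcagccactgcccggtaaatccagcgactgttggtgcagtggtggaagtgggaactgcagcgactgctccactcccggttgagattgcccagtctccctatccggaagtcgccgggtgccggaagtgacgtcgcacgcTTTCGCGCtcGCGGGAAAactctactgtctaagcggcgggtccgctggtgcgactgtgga
Rrm2: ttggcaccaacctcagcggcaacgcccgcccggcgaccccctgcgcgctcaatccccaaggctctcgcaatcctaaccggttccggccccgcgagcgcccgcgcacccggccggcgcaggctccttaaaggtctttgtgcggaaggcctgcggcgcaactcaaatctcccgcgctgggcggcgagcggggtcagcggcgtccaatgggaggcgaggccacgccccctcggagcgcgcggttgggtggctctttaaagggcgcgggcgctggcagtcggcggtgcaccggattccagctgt
Ccne1: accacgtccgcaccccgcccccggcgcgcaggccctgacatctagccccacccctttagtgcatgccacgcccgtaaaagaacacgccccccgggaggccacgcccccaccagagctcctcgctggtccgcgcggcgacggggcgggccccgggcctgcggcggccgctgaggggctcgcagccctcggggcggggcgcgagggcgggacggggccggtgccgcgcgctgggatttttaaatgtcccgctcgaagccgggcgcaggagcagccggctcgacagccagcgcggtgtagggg
The E2F-type letters TTTNNCGC, searched on both strands, were present in 15 of the 32 member genes that had a window, or 46.9%. Over the 14453 measured genes with a window the share was 8.24%, and over 32851 windows of the table it was 5.17%. Mcm6 held 3 matches, and Mcm5, Mcm3, Mcm7 and Rfc3 held 2 each. In Mcm5 the matches began 153 and 149 bases before the start and overlap each other. In Mcm6 the matches began 110, 106 and 47 bases before the start, and those at 110 and 106 overlap each other. The CCAAT letters bound by NF-Y were in 53.1% of the member genes and 42.0% of the measured genes. The letters TTTGAA, the cell cycle homology region of many mitotic genes, were in 9.38% of the member genes and 15.7% of the measured genes. A match is a run of letters in a window and not a binding site, and its absence from the Rrm2 and Ccne1 windows says only that these letters are not in those windows.

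The first question was how the replication genes stood in breast or lesion tissue against normal gland. In quadruple breast 27 of 37 members rose and 0 fell, while 5.7% of all genes tested were called higher and 9.66% lower. The median difference of the members was 1.01, against 0.01 over all genes, and 36 of 37 differences were above 0. In triple K5Cre breast 34 of 37 rose and 0 fell, beside 7.44% of all genes called higher and 9.79% lower, with a median of 1.10 against 0.02 over all genes. A call is an adjusted p under 0.05 in limma, fitted with arrays of 1 animal as a block and adjusted over all 18194 genes. The same 4 gland arrays served all 5 comparisons with normal gland.

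The other groups had few calls. In triple Bcat breast 2 of 37 members rose, beside 1.74% of all genes called higher and 5.38% lower, with a median of 0.65 and 35 differences above 0. In Bcat masses 2 rose, beside 2.6% of all genes called higher and 4.68% lower, with a median of 0.55 and 33 differences above 0. In Bcat ventral tumours 1 rose, beside 0.813% of all genes called higher and 3.22% lower, with a median of 0.28 and 28 differences above 0. At an unadjusted p under 0.05 in limma the counts were 12, 7 and 3, beside 9.3%, 10.3% and 7.88% of all genes higher at that threshold. No member fell in any of the 3 groups. Counted by arrays alone, 2 members in quadruple breast and 25 in triple K5Cre breast had their lowest array above the highest gland, beside 0.654% and 4.82% of all genes. Such members numbered 20 in triple Bcat breast, 13 in Bcat masses and 5 in Bcat ventral tumours, beside 12.4%, 22.2% and 16.8% of all genes, so for the ventral tumours the share of members was near that of all genes. These groups had 3, 2 and 3 arrays, and the larger standard errors that follow limit what they can show.

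**Figure D1:**
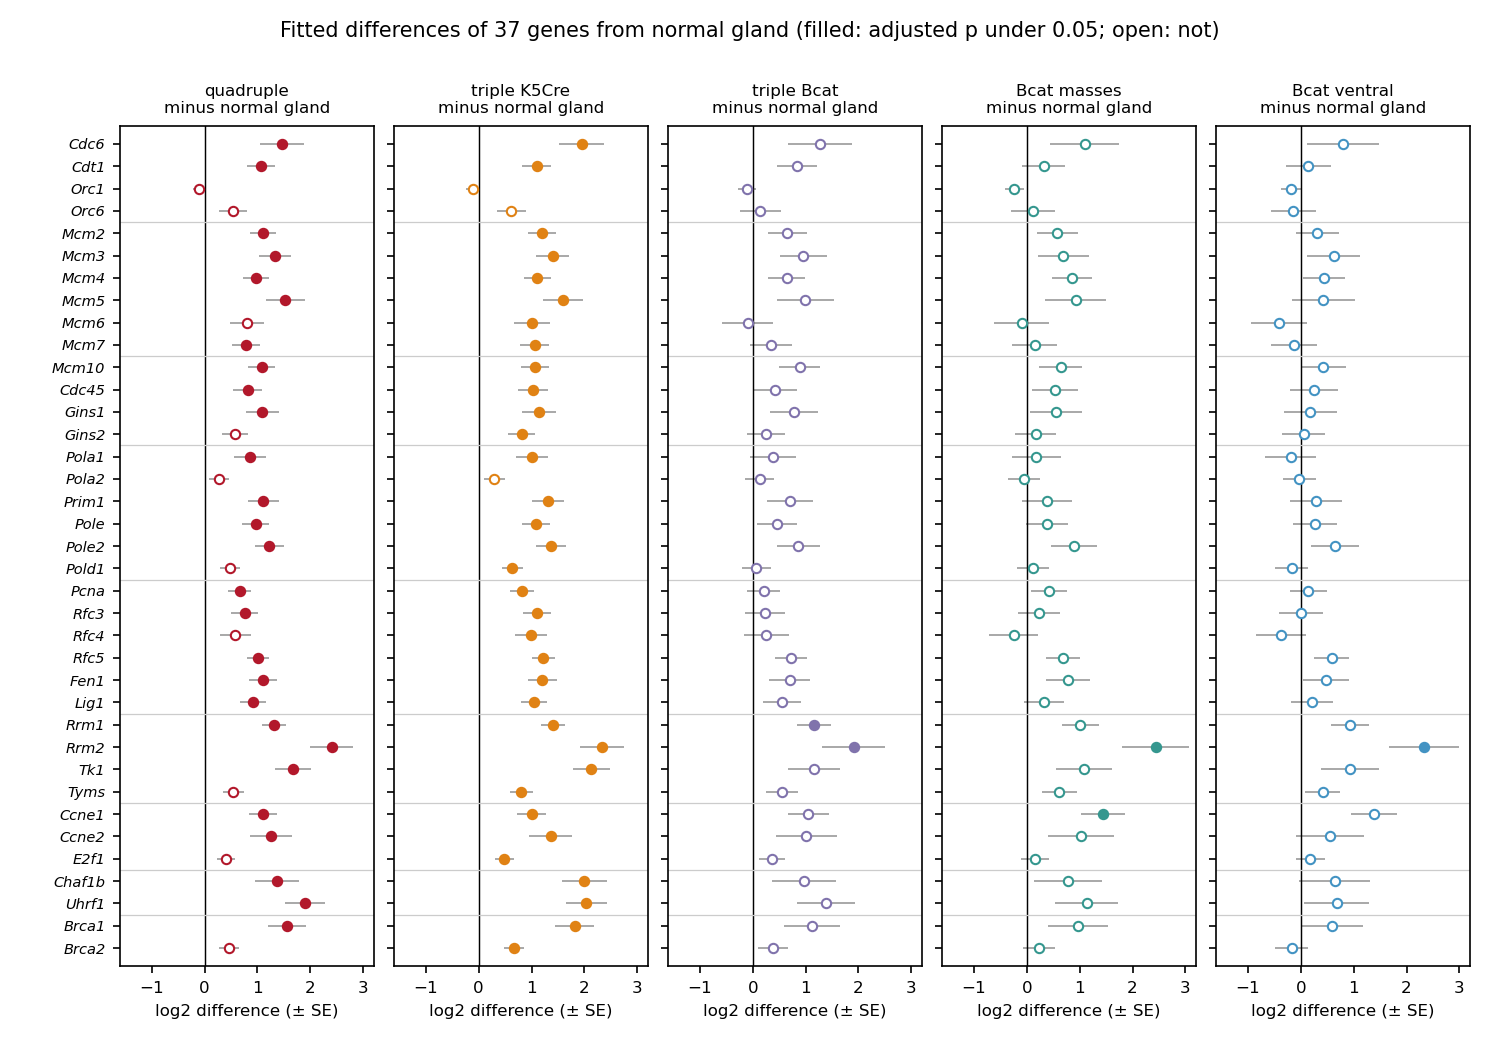
Fitted log2 difference from normal gland (horizontal axis) for the 37 measured genes in 5 comparisons, one panel each, with bars of 1 standard error and genes ordered by role. Filled points had an adjusted p under 0.05: 27 in quadruple breast and 34 in triple K5Cre breast, against 2, 2 and 1 in the triple Bcat, Bcat mass and Bcat ventral tumour panels.

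The mean over the 37 members gave each array 1 value. It was 7.96 ± 0.48 in quadruple breast (SD, n = 19), with a range of 6.90 to 8.84, and 8.16 ± 0.44 in triple K5Cre breast (SD, n = 8). It was 7.42, 7.89 and 7.70 in triple Bcat breast, 7.24 and 7.88 in Bcat masses, and 6.99, 7.41 and 7.61 in Bcat ventral tumours, against 6.82, 6.93, 6.72 and 7.29 in normal gland. In triple K5Cre breast 8 of 8 arrays, and in quadruple breast 18 of 19, were above the highest gland, and so were 3 of 3 triple Bcat arrays, 1 of 2 masses and 2 of 3 ventral tumours. Since these are bulk samples, fewer dividing cells and less of these RNAs per cell cannot be told apart.

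The calls moved with the adipocyte and muscle markers. With the means of both marker lists as covariates, 0 of 37 members were called in each of the 5 comparisons with normal gland, and the smallest adjusted p was 0.596 in quadruple breast. The median difference was then 0.29 (median SE 0.37) in quadruple breast and 0.41 (median SE 0.39) in triple K5Cre breast, with 30 and 35 of 37 differences above 0. It was -0.17, -0.26 and -0.46 in triple Bcat breast, Bcat masses and Bcat ventral tumours, with 13, 5 and 4 above 0. Median SEs there were 0.475, 0.51 and 0.51. The share of all genes called in this and the other alternative fits is not given here. The 0 calls therefore cannot be read as particular to the members. The groups hardly overlap in adipocyte markers, with quadruple array 2 the one breast array inside the range of the glands, so marker level and tissue cannot be told apart. Without quadruple arrays 2 and 9, 29 members rose in quadruple breast, with a median of 1.07. Without the 3 arrays low in Xist, 21 rose in quadruple breast and 27 in triple K5Cre breast.

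**Figure D2:**
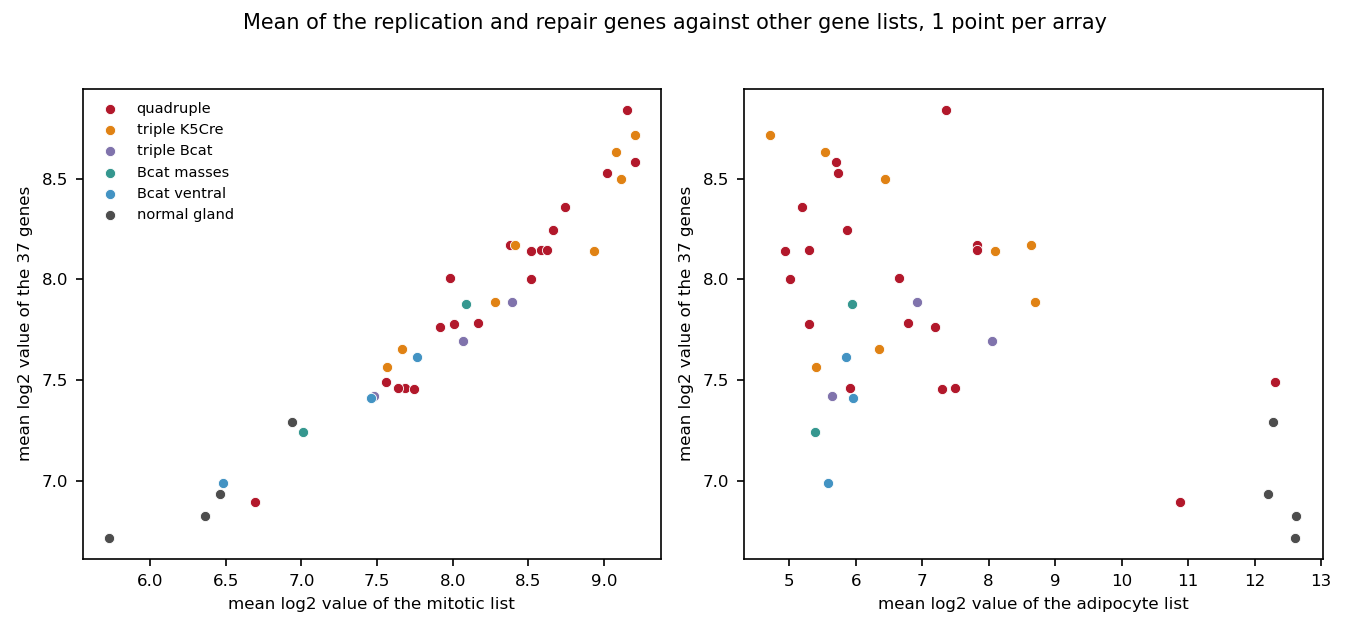
Mean log2 level of the 37 members (vertical axis) on each of 39 arrays, against the mean of the mitotic list (left) and of the adipocyte list (right), in log2 units, 1 point per array coloured by group. The points rise along the mitotic list (r = 0.97), and the normal glands sit at adipocyte means of 12.19 to 12.63 with member means of 6.72 to 7.29.

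**Figure D3:**
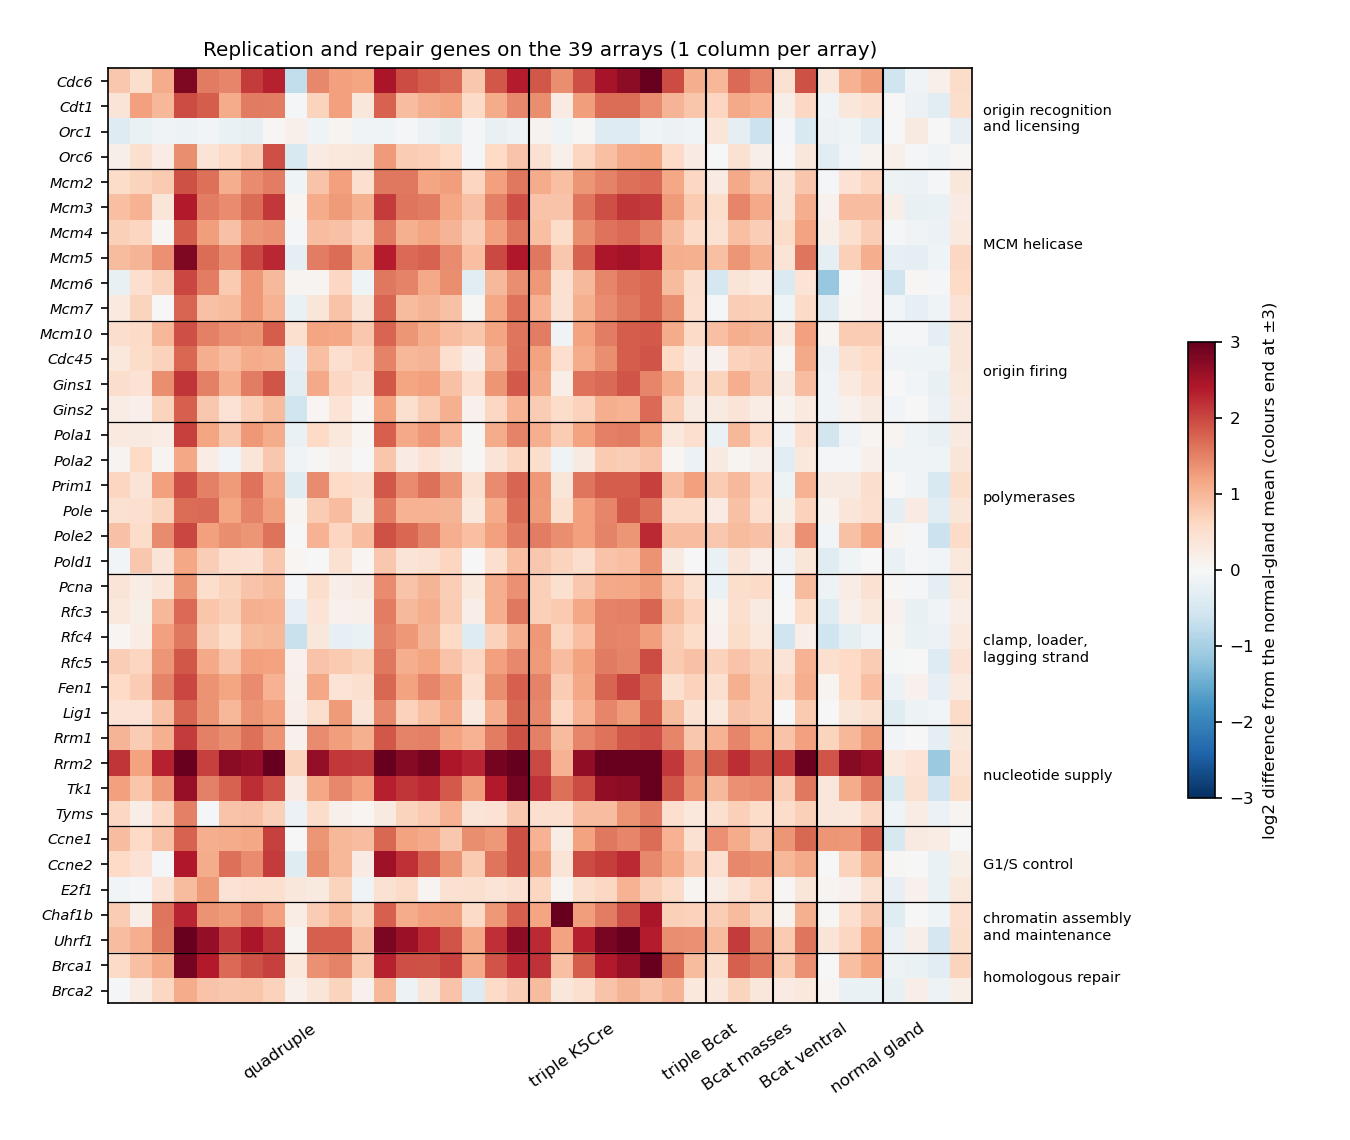
Log2 difference of each of 37 genes (down the page, by role) from the mean of the 4 normal glands, on 39 arrays (across, by group), with colours that end at 3 in either direction. Breast arrays are above the glands for most genes, quadruple array 9 is low for many, and the row of Orc1 shows little change.

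In the licensing group, Cdc6 and Cdt1, which load the helicase, rose, and the subunits of the origin recognition complex did not pass the test. Cdc6 was 3.97, 6.25 and 7.51 in quadruple breast (lowest, median, highest) and 5.78, 6.65 and 7.86 in triple K5Cre breast, against 4.09, 4.60, 4.86 and 5.25 in normal gland. The triple K5Cre arrays lay above every gland, and 17 of 19 quadruple arrays did. The fitted differences were 1.46 (SE 0.41, adjusted p = 0.0126) in quadruple breast and 1.95 (SE 0.43, adjusted p = 0.00123) in triple K5Cre breast. Cdt1 differed by 1.06 in quadruple breast and 1.10 in triple K5Cre breast. Orc6 differed by 0.55 (adjusted p = 0.171) in quadruple breast and 0.62 (adjusted p = 0.121) in triple K5Cre breast. Orc1, the ATPase subunit that recruits Cdc6, differed by -0.11 and -0.12, and it correlated at -0.30 with the mean of the other members over 39 arrays. Its other probe set, dimmer, averaged 4.91, 4.85, 4.66, 4.87 and 4.17 in quadruple breast, triple K5Cre breast, triple Bcat breast, Bcat masses and Bcat ventral tumours, against 3.94 in normal gland, and correlated at 0.82 with the member mean. The 2 probe sets of Orc1 thus disagree, and its level is uncertain.

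The MCM genes encode the hexamer that unwinds DNA. In quadruple breast 5 of 6 rose, and in triple K5Cre breast 6 of 6 did, with medians of 1.04 and 1.16. Mcm5 was 5.84, 7.79 and 8.90 in quadruple breast (lowest, median, highest) and 6.91, 7.79 and 8.60 in triple K5Cre breast. It was 7.02, 7.43 and 7.17 in triple Bcat breast, 6.52 and 7.72 in Bcat masses and 5.84, 6.82 and 7.20 in Bcat ventral tumours, against 5.88, 5.85, 5.99 and 6.73 in normal gland. The triple K5Cre and triple Bcat arrays did not overlap the glands, while 1 quadruple array, 1 mass and 1 ventral tumour fell within or below their range. Mcm5 differed by 1.53 (SE 0.37, adjusted p = 0.00333) in quadruple breast and 1.59 (SE 0.38, adjusted p = 0.00286) in triple K5Cre breast. Mcm3 differed by 1.33 and 1.40, Mcm2 by 1.11 and 1.20, Mcm4 by 0.97 and 1.11, and Mcm7 by 0.78 and 1.06 in quadruple and triple K5Cre breast, and each of these passed the test.

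Mcm6, another helicase subunit, passed the test in triple K5Cre breast alone, and its pattern was not tested against that of the other subunits. It was 8.77, 10.05 and 11.08 in quadruple breast (lowest, median, highest) and 9.54, 10.22 and 10.80 in triple K5Cre breast. It was 8.55, 9.47 and 9.39 in triple Bcat breast, 8.66 and 9.50 in Bcat masses and 7.96, 9.09 and 9.22 in Bcat ventral tumours, against 8.49, 9.12, 9.04 and 9.69 in normal gland. Thus 13 of 19 quadruple arrays and 6 of 8 triple K5Cre arrays were above the highest gland, and 0 arrays of the other 3 groups were. The difference was 0.80 (SE 0.33, adjusted p = 0.0975) in quadruple breast and 1.02 (SE 0.34, adjusted p = 0.0346) in triple K5Cre breast. It was -0.09 in triple Bcat breast, -0.09 in Bcat masses and -0.41 in Bcat ventral tumours, none of which passed the test.

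The firing factors join Mcm2 to Mcm7 into the active helicase. Mcm10, which helps the helicase start, was 6.06, 6.77 and 7.52 in quadruple breast (lowest, median, highest) and 5.48, 6.95 and 7.42 in triple K5Cre breast, against 5.55, 5.53, 5.30 and 5.94 in normal gland. It was 1 of 2 members, with Rrm2, whose 19 quadruple arrays all exceeded the highest gland. Mcm10 differed by 1.08 (SE 0.26, adjusted p = 0.00355) in quadruple breast and 1.07 (SE 0.27, adjusted p = 0.00487) in triple K5Cre breast. Gins1, a GINS subunit, differed by 1.09 and 1.14, and Cdc45, its partner in the helicase, by 0.81 and 1.03, in quadruple and triple K5Cre breast, all past the test. Gins2 differed by 0.57 (adjusted p = 0.115) in quadruple breast and rose by 0.81 (adjusted p = 0.0231) in triple K5Cre breast.

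Among polymerase genes, Pole2, a subunit of the leading strand polymerase, and Prim1, the primase that lays down RNA primers, had the largest differences. Pole2 was 6.90, 8.14 and 8.91 in quadruple breast and 7.83, 8.28 and 9.15 in triple K5Cre breast (lowest, median, highest), against 7.0, 6.88, 6.28 and 7.49 in normal gland. It differed by 1.22 (SE 0.28, adjusted p = 0.00175) in quadruple breast and 1.37 (SE 0.29, adjusted p = 0.000656) in triple K5Cre breast. Prim1 differed by 1.11 and 1.31, Pole, the catalytic subunit, by 0.97 and 1.08, and Pola1, which extends the primers, by 0.86 and 1.01 in quadruple and triple K5Cre breast, and each passed the test. Pold1, the catalytic subunit of the lagging strand polymerase, differed by 0.48 (adjusted p = 0.0823) and by 0.64 (adjusted p = 0.0205), so it rose in triple K5Cre breast. Pola2, the accessory subunit of polymerase alpha, differed by 0.28 and 0.30 and passed in neither group.

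Pcna is the sliding clamp, Rfc3, Rfc4 and Rfc5 are subunits of its loader, and Fen1 and Lig1 trim and seal Okazaki fragments. Of these, 5 of 6 rose in quadruple breast and 6 of 6 in triple K5Cre breast. Pcna was 10.74, 11.45 and 12.20 in quadruple breast and 11.25, 11.57 and 12.06 in triple K5Cre breast (lowest, median, highest), against 10.81, 10.73, 10.50 and 11.06 in normal gland. The triple K5Cre arrays lay above the glands, as did 15 of 19 quadruple arrays, and the differences were 0.82 (SE 0.22, adjusted p = 0.008) in triple K5Cre breast and 0.66 (SE 0.21, adjusted p = 0.03) in quadruple breast. Rfc5 differed by 1.01 and 1.22, Fen1 by 1.10 and 1.20, Lig1 by 0.91 and 1.05, and Rfc3 by 0.76 and 1.10 in quadruple and triple K5Cre breast, all past the test.

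In the Bcat-alone lesions no loader subunit passed the test. Rfc4 was 6.59 and 7.40 in Bcat masses and 6.59, 6.92 and 7.09 in Bcat ventral tumours, against 7.27, 7.0, 7.02 and 7.49 in normal gland, so no lesion exceeded the highest gland. Its differences were -0.25 in masses and -0.38 in ventral tumours, neither past the test, beside 0.58 (adjusted p = 0.189) in quadruple breast and 0.99 (adjusted p = 0.0207) in triple K5Cre breast. Rfc5 was 7.59 and 8.25 in masses and 7.68, 7.79 and 7.97 in ventral tumours, against 7.15, 7.20, 6.81 and 7.62 in normal gland, with differences of 0.69 and 0.58 that did not pass the test.

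Nucleotide supply held Rrm2, the 1 member called in all 5 comparisons with normal gland. Rrm2 is the small subunit of ribonucleotide reductase that is made in S phase. It was 7.45, 9.38 and 10.50 in quadruple breast (lowest, median, highest) and 7.82, 9.17 and 10.39 in triple K5Cre breast. It was 8.63, 8.99 and 8.72 in triple Bcat breast, 8.85 and 9.73 in Bcat masses and 8.67, 9.51 and 9.38 in Bcat ventral tumours, against 7.07, 7.18, 5.66 and 7.19 in normal gland. Thus 35 of 35 breast and lesion arrays were above the highest gland. Rrm2 differed by 2.40 (SE 0.40, adjusted p = 5.67e-05) in quadruple breast, 2.34 (SE 0.42, adjusted p = 0.000112) in triple K5Cre breast, 1.91 (SE 0.59, adjusted p = 0.042) in triple Bcat breast, 2.44 (SE 0.63, adjusted p = 0.0148) in Bcat masses and 2.33 (SE 0.66, adjusted p = 0.0361) in Bcat ventral tumours. The call in triple Bcat breast ends without any single array of either group, that in Bcat masses without either mass or gland array 3, and that in Bcat ventral tumours without tumour array 2 or 3 or gland array 3 or 4. The ventral tumours come from 1 animal, and with 1 mean per animal in place of the block 0 members were called there. Gland array 3 holds the low value of 5.66.

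Rrm1, the large subunit with the active site, moved less. It was 8.44, 9.70 and 10.42 in quadruple breast and 9.12, 9.80 and 10.24 in triple K5Cre breast (lowest, median, highest). It was 9.35, 9.77 and 9.49 in triple Bcat breast, 9.18 and 9.55 in Bcat masses and 8.97, 9.31 and 9.59 in Bcat ventral tumours, against 8.23, 8.33, 8.02 and 8.66 in normal gland. Of 35 breast and lesion arrays, quadruple array 9 alone reached the range of the glands. The difference was 1.31 (SE 0.22, adjusted p = 6.38e-05) in quadruple breast, 1.40 (SE 0.23, adjusted p = 3.81e-05) in triple K5Cre breast and 1.16 (SE 0.32, adjusted p = 0.0226) in triple Bcat breast. It was 1.01 (adjusted p = 0.0711) in Bcat masses and 0.94 (adjusted p = 0.137) in Bcat ventral tumours.

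Tk1, the salvage kinase for thymidine, was 6.82, 8.34 and 9.43 in quadruple breast and 7.86, 8.62 and 9.86 in triple K5Cre breast (lowest, median, highest), against 6.13, 7.02, 5.99 and 7.10 in normal gland. It differed by 1.68 (SE 0.34, adjusted p = 0.000513) in quadruple breast and 2.13 (SE 0.35, adjusted p = 4.06e-05) in triple K5Cre breast. Tyms, thymidylate synthase, was dim on these arrays, with a mean of 3.64 that lies at the 15.6th percentile of all genes, and differed by 0.55 (adjusted p = 0.068) in quadruple breast and 0.81 (adjusted p = 0.00681) in triple K5Cre breast. A brighter probe set of Tyms is shared with the gene Tyms-ps and was not used, so its level is uncertain.

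Rrm2b, which is no member, encodes the other small subunit, the one induced by p53 and used in resting cells. It ran the opposite way from Rrm2, and whether p53 activity differed was not tested. It was 7.06 to 8.34 in quadruple breast and 7.13 to 8.37 in triple K5Cre breast, against 8.48 to 8.59 in normal gland, with no overlap. Rrm2b fell by 0.91 (SE 0.19, adjusted p = 0.000738) in quadruple breast on the log2 scale, and its differences were -0.77 in triple K5Cre breast, -1.07 in triple Bcat breast and -0.94 in Bcat masses, each past the test, and -1.01 (adjusted p = 0.0561) in Bcat ventral tumours, not past it. With the adipocyte and muscle means as covariates its difference in quadruple breast was -0.66 (adjusted p = 0.532).

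**Figure D4:**
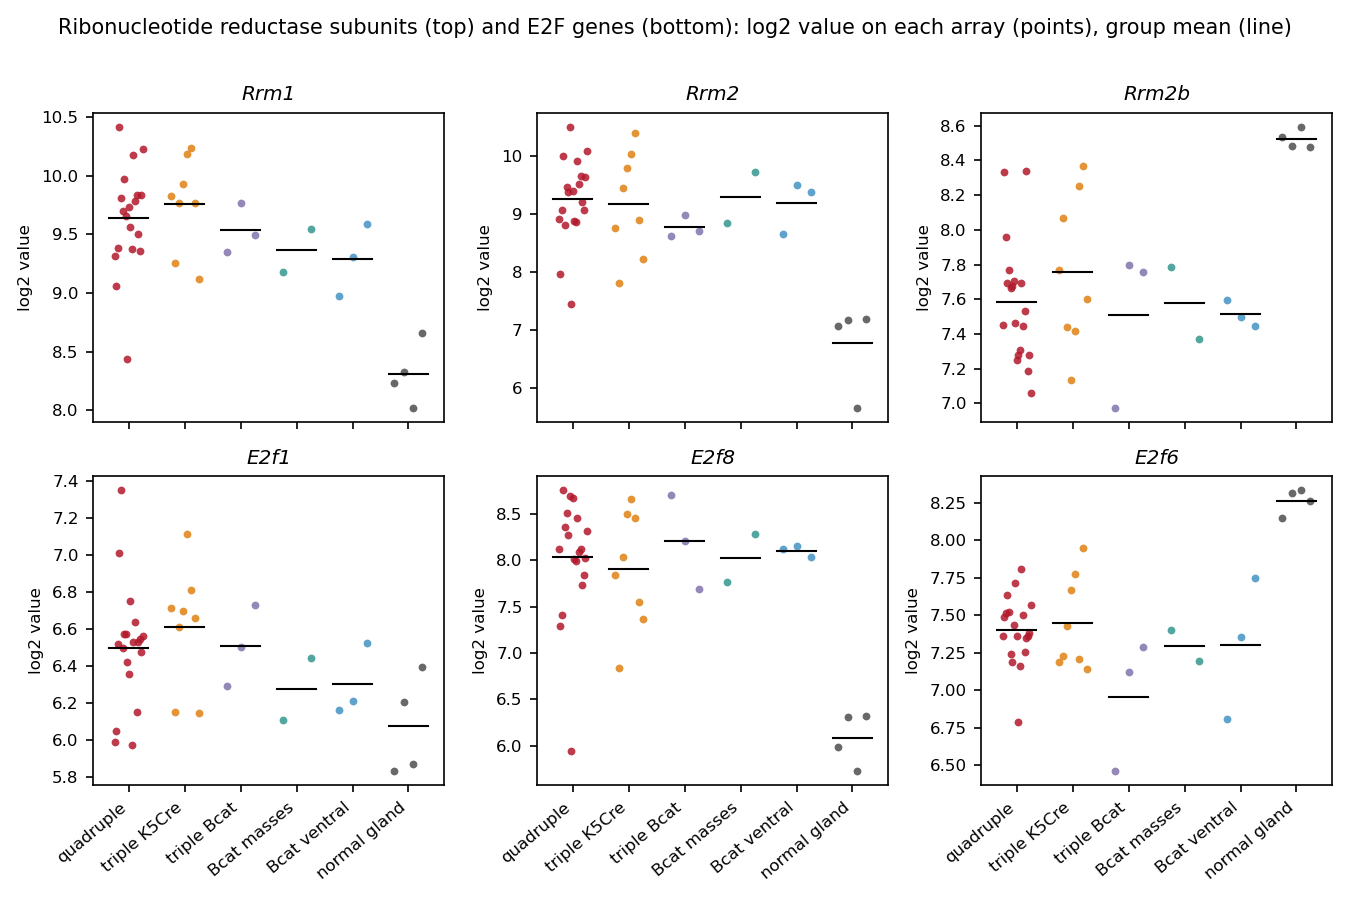
Log2 level (vertical axis) of the ribonucleotide reductase genes Rrm1, Rrm2 and Rrm2b and of E2f1, E2f8 and E2f6 on each of 39 arrays by group, with a line at the group mean. Rrm2 is above the glands on 35 arrays, while Rrm2b and E2f6 are highest in the 4 glands, at 8.48 to 8.59 and 8.15 to 8.33.

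The G1/S group holds both E cyclins, which activate Cdk2 at the start of S phase, and E2f1, the transcription factor. Ccne1 was 5.76, 6.92 and 7.82 in quadruple breast (lowest, median, highest) and 6.0, 6.89 and 7.46 in triple K5Cre breast. It was 7.13, 6.89 and 6.59 in triple Bcat breast, 7.09 and 7.49 in Bcat masses and 7.09, 7.07 and 7.51 in Bcat ventral tumours, against 5.29, 6.05, 6.0 and 5.76 in normal gland. The triple Bcat, mass and ventral tumour arrays did not overlap the glands, and 18 of 19 quadruple and 7 of 8 triple K5Cre arrays were above them. The difference was 1.10 (SE 0.27, adjusted p = 0.0034) in quadruple breast, 1.00 (SE 0.28, adjusted p = 0.00967) in triple K5Cre breast and 1.45 (SE 0.42, adjusted p = 0.0294) in Bcat masses. It was 1.05 (adjusted p = 0.0955) in triple Bcat breast and 1.38 (adjusted p = 0.0636) in Bcat ventral tumours, which did not pass the test. The call in triple K5Cre breast ends without gland array 1, and that in Bcat masses without gland array 1 or 4 or either mass.

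Ccne2 differed by 1.25 (SE 0.39, adjusted p = 0.0253) in quadruple breast and 1.37 (SE 0.41, adjusted p = 0.0165) in triple K5Cre breast. Its quadruple arrays ran from 5.69 to 8.61 and its triple K5Cre arrays from 6.45 to 8.30, against 6.11, 6.04, 5.86 and 6.24 in normal gland. E2f1 was 5.97, 6.53 and 7.35 in quadruple breast and 6.15, 6.68 and 7.11 in triple K5Cre breast (lowest, median, highest), against 5.83, 6.20, 5.87 and 6.39 in normal gland. These ranges overlap, and the difference of 0.40 (SE 0.17) in quadruple breast had an adjusted p of 0.107, while 0.49 (SE 0.17) in triple K5Cre breast had an adjusted p of 0.049.

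Uhrf1, which brings maintenance DNA methylation to new DNA, was 7.56, 9.57 and 10.56 in quadruple breast and 8.68, 9.77 and 10.48 in triple K5Cre breast (lowest, median, highest), against 7.27, 7.65, 6.97 and 8.01 in normal gland. It differed by 1.90 (SE 0.38, adjusted p = 0.000428) in quadruple breast and 2.03 (SE 0.39, adjusted p = 0.000253) in triple K5Cre breast. Chaf1b, a subunit of the complex that places histones on new DNA, was 6.11, 7.16 and 8.20 in quadruple breast and 6.62, 7.32 and 10.58 in triple K5Cre breast, against 5.56, 5.91, 5.80 and 6.42 in normal gland. The value of 10.58 belongs to triple K5Cre array 2, and the other 38 arrays ran from 5.56 to 8.37. Chaf1b differed by 1.37 (SE 0.41, adjusted p = 0.0188) in quadruple breast and 1.99 (SE 0.42, adjusted p = 0.000867) in triple K5Cre breast. Without that array triple K5Cre breast differed by 1.34 (SE 0.31, adjusted p = 0.00252), a choice made after seeing the data.

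The homologous repair members were Brca1, which helps resect breaks and recruit the repair complex, and Brca2, which acts at the strand exchange step. Brca1 was 5.87, 7.44 and 8.42 in quadruple breast (lowest, median, highest) and 6.48, 7.55 and 8.60 in triple K5Cre breast. It was 6.08, 7.35 and 7.15 in triple Bcat breast, 6.34 and 6.93 in Bcat masses and 5.56, 6.46 and 6.75 in Bcat ventral tumours, against 5.41, 5.36, 5.24 and 6.24 in normal gland. The triple K5Cre arrays and the masses did not overlap the glands, and 17 of 19 quadruple arrays were above them. Brca1 differed by 1.56 (SE 0.36, adjusted p = 0.0023) in quadruple breast and 1.82 (SE 0.37, adjusted p = 0.000603) in triple K5Cre breast.

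Brca2 was 6.08, 7.07 and 7.56 in quadruple breast and 6.78, 7.30 and 7.48 in triple K5Cre breast (lowest, median, highest). It was 6.80, 7.13 and 6.78 in triple Bcat breast, 6.70 and 6.78 in Bcat masses and 6.50, 6.26 and 6.26 in Bcat ventral tumours, against 6.23, 6.65, 6.31 and 6.62 in normal gland. The ventral tumours lay within the range of the glands. Brca2 rose by 0.67 (SE 0.20, adjusted p = 0.0156) in triple K5Cre breast, while its difference of 0.46 (SE 0.19) in quadruple breast had an adjusted p of 0.102.

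**Figure D5:**
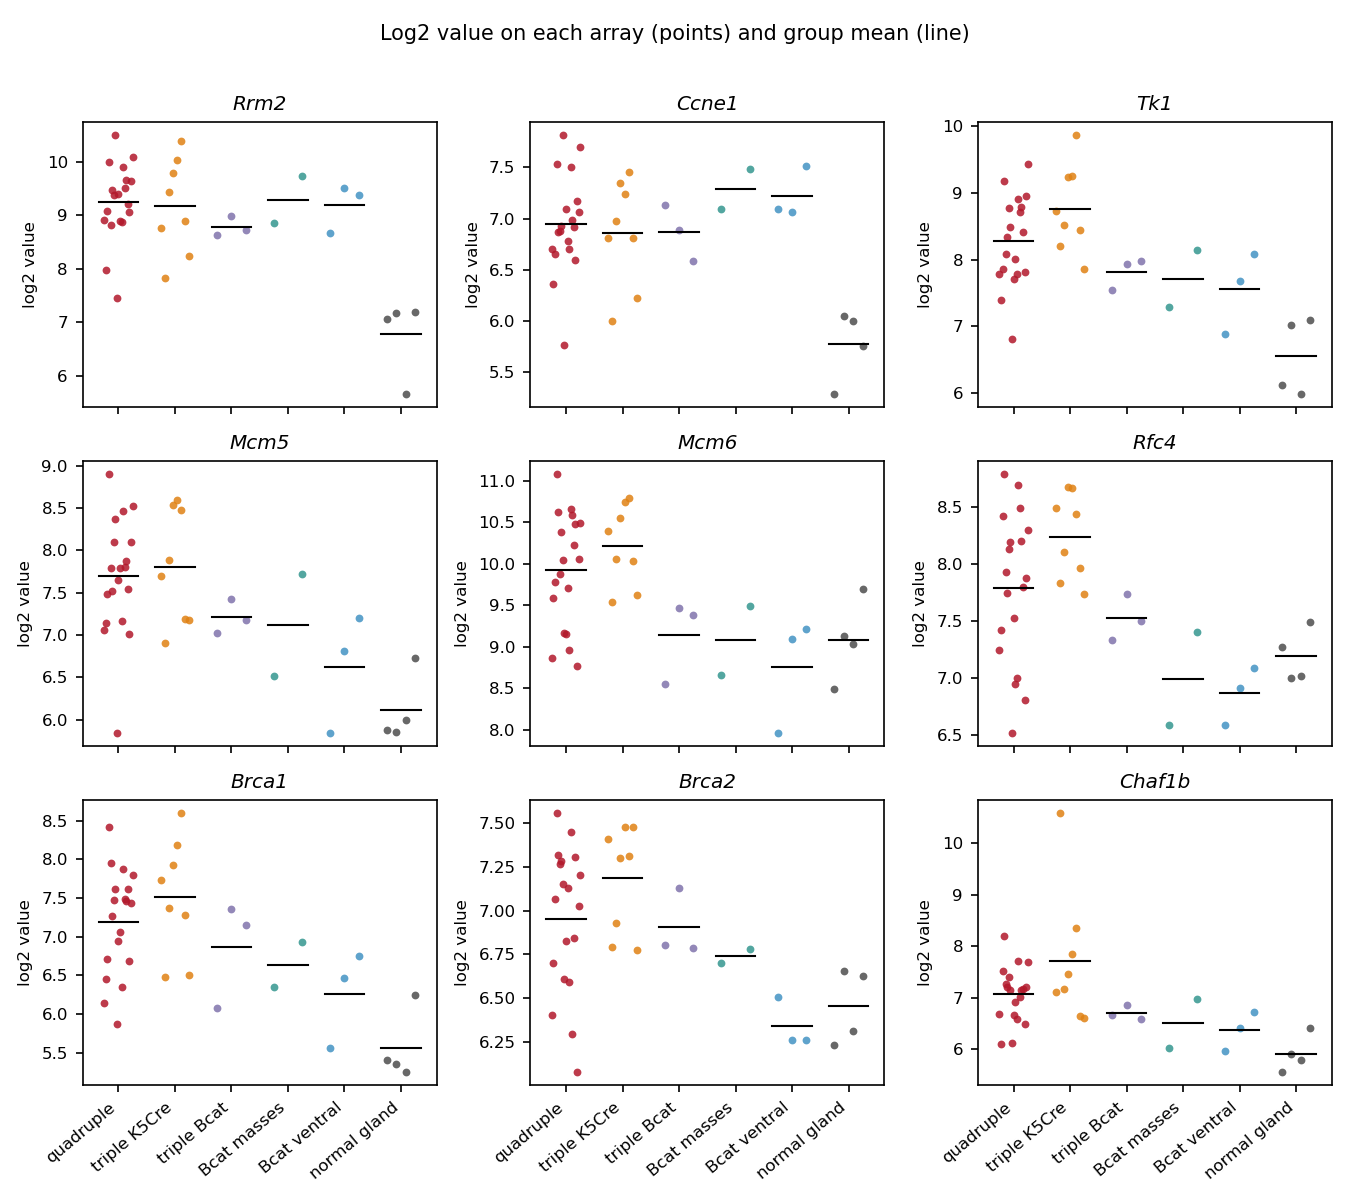
Log2 level (vertical axis) of 9 members on each of 39 arrays, 1 panel per gene, by group from quadruple breast to normal gland, with a line at the group mean. Rrm2 stands above the glands in every other group, Mcm6 and Rfc4 do so in quadruple and triple K5Cre breast for most arrays, and 1 triple K5Cre array has a Chaf1b level of 10.58.

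A further question was whether groups without normal gland differed among themselves. Between quadruple and triple K5Cre breast, which differ by Bcat, 0 of 37 members were called in limma, also at an unadjusted p under 0.05, and 0% of all genes were called higher or lower, with 1.29% higher at the unadjusted threshold. The median difference was -0.14, and the smallest p was that of Chaf1b, at -0.63 (SE 0.32, adjusted p = 0.995). Without triple K5Cre array 2 the Chaf1b difference was -0.19 (SE 0.23). Against triple Bcat breast, which lacks K5Cre, 0 members were called in quadruple breast, beside 0% of all genes called higher and 0.033% lower, with a median of 0.38 and 1 member at an unadjusted p under 0.05, beside 4.44% of all genes higher there. Mcm6 was that member, at 0.89 (SE 0.41, adjusted p = 0.583).

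Against the Bcat-alone lesions the median difference in quadruple breast was above 0, without a call. Against masses 0 were called, beside 0.0385% of all genes called higher and 0.176% lower, with a median of 0.43 and 2 at an unadjusted p under 0.05, where 3.09% of all genes were higher. These were Cdt1 at 0.75 (SE 0.35, adjusted p = 0.59) and Rfc4 at 0.83 (SE 0.40, adjusted p = 0.601). Against ventral tumours 0 were called, beside 0.011% of all genes called higher and 0.132% lower, with a median of 0.68 and 36 of 37 differences above 0. At an unadjusted p under 0.05 there were 11, beside 4.8% of all genes higher at that threshold. The smallest p was that of Mcm6, at 1.22 (SE 0.47, adjusted p = 0.454), then Pola1, at 1.05 (SE 0.42, adjusted p = 0.466), and Cdt1, at 0.92 (SE 0.37, adjusted p = 0.466). Pola1 was 6.66 to 8.91 in quadruple breast, against 6.31, 6.76 and 6.94 in ventral tumours, which come from 1 animal.

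A pair of triple K5Cre animals gave both breast and normal gland. In animal T627, 35 of 37 members were higher in breast than in gland, with a median difference of 0.76, from -0.14 for Orc1 to 4.79 for Chaf1b. In animal T635, 36 of 37 were higher, with a median of 0.86, from -0.08 for Pola2 to 2.25 for Rrm2. A fit on these 4 arrays with the animal as a block called 0 members, with a median of 0.86. Group means and an animal term on 4 arrays leave little to estimate spread from, so the 0 calls show little. Repeat breast arrays of 1 animal differed as well: the member mean ranged over 1.47 among the 3 arrays of quadruple animal Q648, at 8.36, 6.90 and 7.78, and over 0.0069 between those of Q190. The array at 6.90 is quadruple array 9, with the adipocyte mean of 10.87.

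The members varied together over the 39 arrays. The median correlation over 666 pairs of members was 0.826, and 30 of 37 members correlated above 0.8 with the mean of the others. The points share the normalization and the differences between groups and in cell make-up, so this is a description. The lowest were Orc1 (-0.30), Chaf1b (0.64), Ccne1 (0.68), E2f1 (0.71), Tyms (0.75) and Brca2 (0.76), and the SD over arrays ran from 0.19 for Orc1 to 1.01 for Rrm2. Within the 19 quadruple arrays Orc1 (-0.20), E2f1 (0.50), Tyms (0.62) and Brca2 (0.69) were again below most members. Ccne1 was at 0.80 and Chaf1b at 0.90 there, where the Chaf1b value of 10.58 on triple K5Cre array 2 plays no part. The genes outside the list most like the member mean over 39 arrays were Ncaph, a condensin subunit (r = 0.984), Kntc1, of the kinetochore (0.979), Dscc1, of an alternative clamp loader (0.976), Zwilch, of the kinetochore (0.975), and Fignl1, of homologous repair (0.974).

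Other genes of the same processes had smaller medians as lists. Of 50 further replication genes, 21 rose and 1 fell in quadruple breast, with a median of 0.37, and 25 rose and 1 fell in triple K5Cre breast, with a median of 0.51. Of all genes, 5.7% were called higher and 9.66% lower in quadruple breast, and 7.44% and 9.79% in triple K5Cre breast. Falls in the list were thus rarer than among all genes. The 3 largest rises in quadruple breast were Dscc1 (1.71), Hells, a chromatin remodeller (1.64), and Clspn, a fork checkpoint adaptor (1.56), and the gene that fell was Rrm2b. In triple Bcat breast 3 rose and 1 fell, in Bcat masses 0 rose and 1 fell, and in Bcat ventral tumours 0 changed in limma, with medians of 0.14, 0.21 and 0.07. Among all genes 1.74%, 2.6% and 0.813% were called higher in these groups, and 5.38%, 4.68% and 3.22% lower.

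Of 31 further homologous repair genes, 12 rose and 1 fell in quadruple breast, with a median of 0.46, and 16 rose and 0 fell in triple K5Cre breast, with a median of 0.69. Beside these stand 5.7% of all genes called higher and 9.66% lower in quadruple breast, and 7.44% and 9.79% in triple K5Cre breast. The fall of 1 gene in this list was below the share of all genes. The resection nuclease Exo1 differed by 1.37 and 1.54 and the checkpoint kinase Chek1 by 1.25 and 1.40 in quadruple and triple K5Cre breast. Rad50, of the complex that senses breaks, fell by 0.39 (adjusted p = 0.0405) in quadruple breast, and its difference was -0.81 in triple Bcat breast and -0.75 (adjusted p = 0.04) in Bcat ventral tumours, both past the test. In triple K5Cre breast Rad50 differed by -0.19 (adjusted p = 0.364) and in Bcat masses by -0.50 (adjusted p = 0.148), which did not pass. The 3 ventral tumours come from 1 animal, so the Rad50 call there does not measure the spread between animals with such tumours.

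Of 25 further G1/S genes, 11 rose and 1 fell in quadruple breast and 12 rose and 1 fell in triple K5Cre breast, with medians of 0.59 and 0.57. The shares of all genes were 5.7% higher and 9.66% lower in quadruple breast, and 7.44% and 9.79% in triple K5Cre breast. Cdkn2a, which encodes the inhibitors p16Ink4a and p19Arf, rose by 2.31 and 3.16, and Skp2, which targets the inhibitor p27 for breakdown, by 1.98 and 2.10 in quadruple and triple K5Cre breast. Cdkn1a, also of this list, rose in limma by 1.86 (adjusted p = 0.00781) in quadruple breast and 2.26 (adjusted p = 0.00171) in triple K5Cre breast. The Cdkn1a differences of 2.06, 2.33 and 1.92 in triple Bcat breast, Bcat masses and Bcat ventral tumours did not pass. In limma Cdkn2a also rose in Bcat masses, by 3.65 (adjusted p = 0.0315), and in Bcat ventral tumours, by 3.73 (adjusted p = 0.0488). Its difference of 2.77 (adjusted p = 0.0861) in triple Bcat breast did not pass. Cdkn2a ran from 4.52 to 7.86 in the glands, and quadruple array 9 was at 4.29. E2f8, a repressor that is itself a cell cycle gene, rose by 1.88 in quadruple breast, 1.74 in triple K5Cre breast, 2.09 in triple Bcat breast, 1.86 in Bcat masses and 1.94 in Bcat ventral tumours. E2f6, a repressor of the E2F family, fell in all 5 comparisons, with differences of -0.89, -0.84, -1.38, -0.99 and -0.98 in quadruple breast, triple K5Cre breast, triple Bcat breast, Bcat masses and Bcat ventral tumours. The 4 glands were at 8.15 to 8.33 for E2f6. The 3 ventral tumours come from 1 animal. The calls of Cdkn2a, E2f8 and E2f6 there thus do not measure the spread between animals with such tumours. With the marker means as covariates the E2f6 difference in quadruple breast was -0.53 (adjusted p = 0.512).

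Mitotic genes served as a list of the same cell cycle. In quadruple breast 19 of 19 rose, with a median of 1.75, and in triple K5Cre breast 19 of 19 rose, with a median of 2.02. Among all genes 5.7% and 7.44% were called higher there. In triple Bcat breast 6 rose, with a median of 1.47, and in Bcat masses and Bcat ventral tumours 0 were called in limma, with medians of 1.09 and 0.80 and 9 and 0 at an unadjusted p under 0.05. The shares of all genes called higher were 1.74%, 2.6% and 0.813% in these 3 groups. At the unadjusted threshold 10.3% and 7.88% of all genes were higher in masses and ventral tumours. The mitotic list mean correlated at 0.97 with the member mean over 39 arrays, while the adipocyte, muscle, macrophage and endothelial lists were at -0.55, -0.53, -0.54 and -0.56. The T cell, fibroblast, neutrophil and B cell lists were at -0.49, -0.51, -0.33 and -0.29, and the epithelial list at 0.23. Over the 35 arrays without the glands, adipocyte and muscle were at -0.27 and -0.29. Mitotic was at 0.97 there, macrophage at -0.57, endothelial at -0.51 and neutrophil at -0.61. T cell and fibroblast were at -0.52 and -0.48, B cell at -0.27 and epithelial at 0.13. Neutrophil markers averaged 10.39 to 11.07 in triple Bcat breast, 10.14 to 10.64 in Bcat masses and 10.16 to 10.96 in Bcat ventral tumours, against 6.22 to 7.67 in normal gland. They ran from 5.15 to 10.94 in quadruple breast, which reached the same level, and from 5.53 to 9.39 in triple K5Cre breast. The part of neutrophil markers in the member levels was not tested.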

How the data were processed

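Total RNA of 39 mouse tissue samples was amplified and labelled with biotin (Affymetrix 3' IVT Express), as the labels state. The deposited values are log2 intensities of 45101 probe sets, made with RMA per the submitters' processing notes. They ran from 1.65 to 14.6, and 0 columns were unused. The version of RMA was not given in the sources used here. Detection calls were not used, and precision is limited by how many arrays a group has.

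Of the probe sets, 34958 carried 1 gene, 932 several and 9211 none in the platform annotation, and 204 of the first kept a symbol not matched in RefSeq GRCm38.p6. For 18194 genes the brightest probe set stood for the gene, with cross-hybridising sets used for the 100 genes that had no other. Of the 37 measured members 28 had several probe sets. Of the 45 sets not used, 20 had a mean under 5, and 23 of the other 25 correlated above 0.8 with the set used.

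Samples were grouped by label into 6 groups, and animals (30) were read from the titles. Nothing in the labels says how samples of 1 group were handled, so p-values measure the spread between these samples. The highest correlation between any pair of arrays was 0.9959, and no array was a copy of another. The limma fit had a mean per group, the animal as a random block (correlation 0.329) and a trended variance, with Benjamini-Hochberg adjustment over all genes and a call at 0.05. A fitted difference weighs arrays of an animal together, so it can differ from the difference of group means. The fit was checked on simulated data. Promoter letters were counted in RefSeq windows of GRCm38.p6.

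Alternatives were no block, animal means, 2 groups alone, cyclic loess, array weights, no variance trend, the mean of all probe sets, no dim genes, marker lists as covariates, a fit on the animals with both tissues, and each array of the small groups left out. Leaving out the arrays low in Xist, the quadruple arrays high in adipocyte markers and triple K5Cre array 2 was added after seeing the data. The genes with full statistics were those with the largest called differences or smallest p in a comparison and set members of each role, and the rest are given by their differences. The values of 1 gene of the wider homologous repair list, which its counts include, are not reported here. The members and all lists were chosen with earlier results of these data known. The fit used limma 3.58.1 under R 4.3.3, and tables were made with pandas 2.3.3 and numpy 2.4.6 under Python 3.11.15.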

Additional observations from a re-analysis of the deposited data

Results flagged for a closer look

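The rule used here flags about 1 group of values in 20 by chance. The members vary together over the same arrays, so the groups are not independent, and that rate gives no measure of excess. In 7 of 74 groups of values tested, 1 array lay far from the others of its group. Normal gland array 4 accounted for 4 of them, in each case as the highest: Mcm5 at 6.73 (next 5.99), Cdc45 at 6.18 (next 5.71), Pola2 at 7.33 (next 6.87) and Brca1 at 6.24 (next 5.41). Rrm2 was low in normal gland array 3, at 5.66, with the next gland at 7.07. In triple K5Cre breast, Pole2 stood apart in array 6, at 9.15 (next 8.44), and Chaf1b in array 2, at 10.58 (next 8.37). The 6 measured genes nearest to Chaf1b in annotation order, 3 on each side, were within the range of the other 38 arrays on that array. Triple K5Cre array 2 and normal gland array 3 come from animal T627, and both are among the 3 arrays with a log2 Xist level under 8, at 7.0 and 5.64, beside quadruple array 5 at 5.72.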

How the results depend on the processing

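With the adipocyte and muscle means as covariates, 0 members were called in any comparison, and the differences of Prim1 and Rfc3 in quadruple breast became -0.0082 and -0.0335. The share of all genes called is given here for the main fit alone. Whether genes at large gained or lost calls alike under a setting cannot be told from these counts. Arrays were left out singly in the groups of 2 to 4 arrays, and among the larger groups only triple K5Cre array 2 was. This gave 18 to 23 calls in quadruple breast against gland, 25 to 34 in triple K5Cre breast (34 without triple K5Cre array 2), 0 to 1 in triple Bcat breast, 0 to 2 in Bcat masses, 0 to 1 in Bcat ventral tumours and 0 in the comparisons of quadruple breast with the other groups. In quadruple breast the calls of Ccne2, Cdc45, Pola1 and Rfc3 were lost without each of the 4 gland arrays, and those of Pcna and Mcm7 without gland array 1, 2 or 3. In triple K5Cre breast those of E2f1, Gins2, Mcm6 and Pold1 were lost without gland array 1, 2 or 3, and that of Brca2 without gland array 1 or 3. In triple Bcat breast, the count of 2 became 0 without triple Bcat array 1 or 2 or gland array 3, and 1 without triple Bcat array 3 or gland array 1, 2 or 4. In Bcat masses it became 0 without either mass and 1 without gland array 1, 3 or 4. In Bcat ventral tumours the single call was lost without tumour array 2 or 3 or gland array 3 or 4. Without the arrays low in Xist the counts were 21 in quadruple breast, 27 in triple K5Cre breast, 0 in triple Bcat breast and 0 in Bcat ventral tumours.

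Array weights gave 29 calls in triple Bcat breast, 5 in Bcat masses, 8 in Bcat ventral tumours and 16 between quadruple breast and ventral tumours. These counts and those that follow also stand without the share of all genes called under the same setting. Fits on the 2 groups alone gave 10 in triple Bcat breast, 7 in Bcat masses and 3 in Bcat ventral tumours. Cyclic loess gave 4 in triple Bcat breast and 2 in Bcat ventral tumours, and the mean of all probe sets gave 1 and 2. For Bcat ventral tumours the count was 3 with no replicate block and 0 with animal means. The paired fit on 2 animals with the animal as a block gave 0 calls in triple K5Cre breast, but its arrays are too few to weigh the calls of the main fit. The replicate numbers of the samples carry no pairing. Over the genes named or called, 1568 values kept their direction and call, 21 gained a call, 370 lost one and 2 changed direction. Over all 37 members, called or not, the covariates left 13 differences above 0 in triple Bcat breast, 5 in Bcat masses and 4 in Bcat ventral tumours, against 35, 33 and 28 without them. The causes were not tested. Calls in the 3 groups of 2 or 3 arrays therefore depend on the settings.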
